A study of Mus musculus with 8 samples.

Results

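The glutamate and GABA receptor genes comprised the 47 protein-coding mouse genes whose RefSeq symbols begin with Gria, Grik, Grin, Grid or Grm followed by a number, or with Gabra, Gabrb, Gabrg, Gabrr, Gabrd, Gabre, Gabrp, Gabrq or Gabbr. They were drawn from 21887 protein-coding genes on chromosomes 1 to 19, X and Y. Of the 47, 26 encode glutamate receptor subunits and 21 encode GABA receptor subunits. H4K12la, lactylation of a lysine of histone H4, was mapped by CUT&Tag, which cuts and tags DNA around a modified histone with a transposase held there by an antibody. The 8 libraries came from brains of which the cerebellum was not taken. They fell into 4 groups of 2, which were microglia of 5XFAD and of WT mice, and total brain cells of 5XFAD and of WT mice. 5XFAD mice carry human transgenes with mutations of familial Alzheimer's disease, driven by the mouse Thy1 promoter, which is active in neurons. All mice were perfused with saline, all brains were dissociated with enzymes and cleared of myelin, and microglia were then taken with beads against CD11b. Age, sex, strain background and the pooling of animals were not given in the labels. With 2 libraries a group and no statement that they came from separate mice, each test measured the spread between these libraries, which may be technical.

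Glutamate is the main excitatory transmitter of the brain and GABA the main inhibitory one. Each acts on channels that open when it binds (AMPA, kainate and NMDA receptors for glutamate, GABA-A receptors for GABA) and on receptors that signal through G proteins (Grm receptors and GABA-B). Most of these genes are expressed chiefly in neurons, although astrocytes and oligodendrocyte precursors express some of them. H4K12la is a histone mark derived from lactate and is found mostly at promoters of active genes.

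The data were lists of peaks, intervals in which the authors found enrichment, 1 list per library. The microglia lists held 29947 and 41783 peaks in 5XFAD and 22300 and 33500 in WT. The total cell lists held 32967 and 22807 peaks in 5XFAD and 25271 and 22543 in WT. Read counts were not used here, so the depth behind a missing peak is unknown. Median widths of peaks ranged over 580 to 735 bp in microglia libraries and 287 to 366 bp in those of total cells, and their part in the results was not tested. The microglia libraries carried marks of the cells named in their label, since 10 or 11 of 11 microglia marker genes had a gene-end peak in each microglia library, against 2 to 6 in total cell libraries. Of 9 neuron marker genes, 0 or 1 had a gene-end peak in a microglia library and 1 or 2 in a total cell library. Snap25, Tubb3, Nefl and Nefm had no peak in any list. Map2 had a gene-end peak in every total cell and no microglia library, as did 0.649% of all genes. Inside the gene it had 3 and 2 peaks in 5XFAD and 9 and 6 in WT total cells, against 1 in microglia, in WT 2. Inside Syt1 there were 2 and 0 peaks in 5XFAD and 1 and 1 in WT total cells, and none in microglia. Rbfox3 went the other way at its ends. It had 0 and 1 gene-end peaks in 5XFAD and 1 and 2 in WT microglia, and none in total cells. Of 8 astrocyte markers, 1 or 2 had one in a microglia library and 1 to 3 in a total cell library, and of 6 markers of oligodendrocyte precursors 0 in microglia and 0 or 1 in total cells. At gene ends, marker genes of neurons other than Map2 were thus sparsely marked in total cells too. Of 7 oligodendrocyte markers, 2 or 3 had a gene-end peak in a microglia library and 0 or 1 in a total cell library. Mbp, among them, had one in every microglia and no total cell library. Of 9 markers of other leukocytes, 1 to 3 had one in a microglia library and 0 or 1 in a total cell library. Of 7 vascular markers, these counts were 1 or 2 and 0 to 2. In such bulk samples, fewer cells of a type and less of the mark per cell cannot be told apart.

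The receptor genes had few peaks in every library. A gene-end peak, one overlapping the 2 kb on either side of either annotated end of a gene, was present at 5 and 6 of the 47 genes in 5XFAD microglia and at 2 and 4 in WT microglia. In total cells it was present at 4 and 4 genes in 5XFAD and at 13 and 7 in WT. Both libraries of a group shared 4 of these genes in 5XFAD microglia, 2 in WT microglia, 3 in 5XFAD total cells and 5 in WT total cells, against 40.1%, 32.1%, 31.3% and 28.4% of all genes. In single libraries, the share of receptor genes with a gene-end peak was 4.26% to 12.8% in microglia and 8.51% to 27.7% in total cells. All protein-coding genes had shares of 33.3% to 49.0% in microglia and 34.2% to 41.9% in total cells. The receptor share lay below that of all genes in all 8 libraries. Of the 47 genes, 29 (61.7%) lacked gene-end peaks in every library, against 41.1% of all genes, and 18 (38.3%) lacked a peak of any kind, against 34.0%. The median number of libraries with a gene-end peak was 0 of 8 over the 47 genes, against 2 over all genes.

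**Figure D1:**
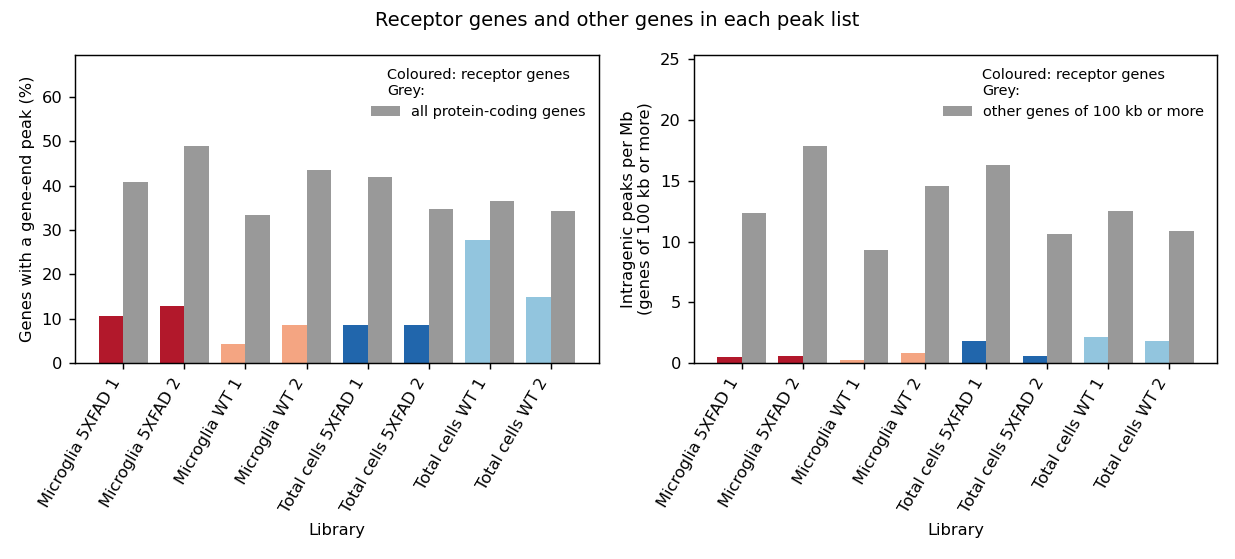
Left, percentage of the 47 receptor genes (coloured bars) and of all 21887 protein-coding genes (grey bars) with a gene-end peak in each library. Right, intragenic peaks per Mb in the 26 receptor genes of 100 kb or more (coloured) and in other genes of that length (grey); the receptor bars lie below the grey bars in every library, at no more than 2.178 peaks per Mb against at least 9.308.

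The bodies of long receptor genes held few peaks as well. The receptor genes had a median length of 183.3 kb, against 17.2 kb for all genes, and 26 of them span 100 kb or more, a length shared by 2429 genes in all. An intragenic peak lies wholly inside the gene, beyond the gene-end windows. Long receptor genes had 0.261 to 0.784 intragenic peaks per Mb in microglia and 0.61 to 2.178 in total cells. Other genes of that length had 9.308 to 17.893 per Mb in microglia and 10.626 to 16.308 in total cells. Of the 26 long receptor genes, 10 (38.5%) had no intragenic peak in any library, against 16.3% of all genes of that length, and none had one in all 8, against 38.1%. At their ends, 16 of the 26 had no peak in any library, against 36.1% of long genes, and none had one in all 8, against 17.0%. No peak of any kind in microglia was found for 21 of the 26, against 27.8% of long genes, and none in total cells for 7, against 14.2%.

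The peaks that receptor genes did have were mostly those of total cells. An intragenic peak was found in 5 and 5 of the 47 genes in 5XFAD microglia, 3 and 8 in WT microglia, 16 and 9 in 5XFAD total cells and 16 and 12 in WT total cells. Every total cell library had more such genes than any microglia library. Over all genes, not matched for length, the preparations overlapped, at 19.2% to 27.7% in microglia and 21.0% to 26.4% in total cells. Among other genes of 100 kb or more they did not overlap either. Their shares with an intragenic peak were 50.9% to 60.8% in microglia and 64.0% to 70.7% in total cells. For long receptor genes these shares were 7.69% to 19.2% and 23.1% to 53.85%. Peaks in or within 2 kb of receptor genes made up 4.04 ± 0.996 of every 10000 listed peaks in microglia and 11.6 ± 4.58 in total cells (SD, n = 4 libraries each). In all, 13 receptor genes had a peak of any kind in at least 1 microglia library and 26 in at least 1 total cell library. The 34 without one in microglia compare with 40.9% of all genes, and the 21 without one in total cells with 39.7%. Of the 26, 16 genes (34.0% of the 47) had a peak in total cells and none in microglia, against 6.87% of all genes. The opposite held for Grin1, Gabrd and Gabre, 3 genes (6.38%), against 5.65% of all genes, and each of those 3 rested on 1 microglia library. For Gabrd, which rested on microglia 5XFAD 2, microglia 5XFAD 1 also had a peak at the same place, but outside the 2 kb window. The shares of all genes here were not matched for length. Among genes of 100 kb or more, 27.8% lacked a peak in microglia and 14.2% in total cells, against 80.8% and 26.9% of long receptor genes.

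The library total cells WT 1 stood apart. It had 43 peaks in receptor genes, the most of any library, although 4 lists were longer. Among these, 1 peak was counted for both Gabra4 and Gabrb1. Merging overlapping peaks of all 8 lists gave 80 regions at receptor genes, of which 43 (53.8%) were found in 1 library alone, against 37.9% of all merged regions. Of those 43 regions, 21 were found in total cells WT 1, against 4972 of the 27806 merged regions of the genome found in 1 library alone. Among the 13 receptor genes with a gene-end peak there, 7 had it in no other library, among them Grik4, Grin2b, Grin3a, Grm8, Gabra4 and Gabrb1. The same peak served for both Gabra4 and Gabrb1, and the share of all genes with that pattern was not counted. Without that library, 11 receptor genes had peaks in total cells and none in microglia, against 5.91% of all genes, not matched for length, and 23 had no peak at all.

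**Figure D2:**
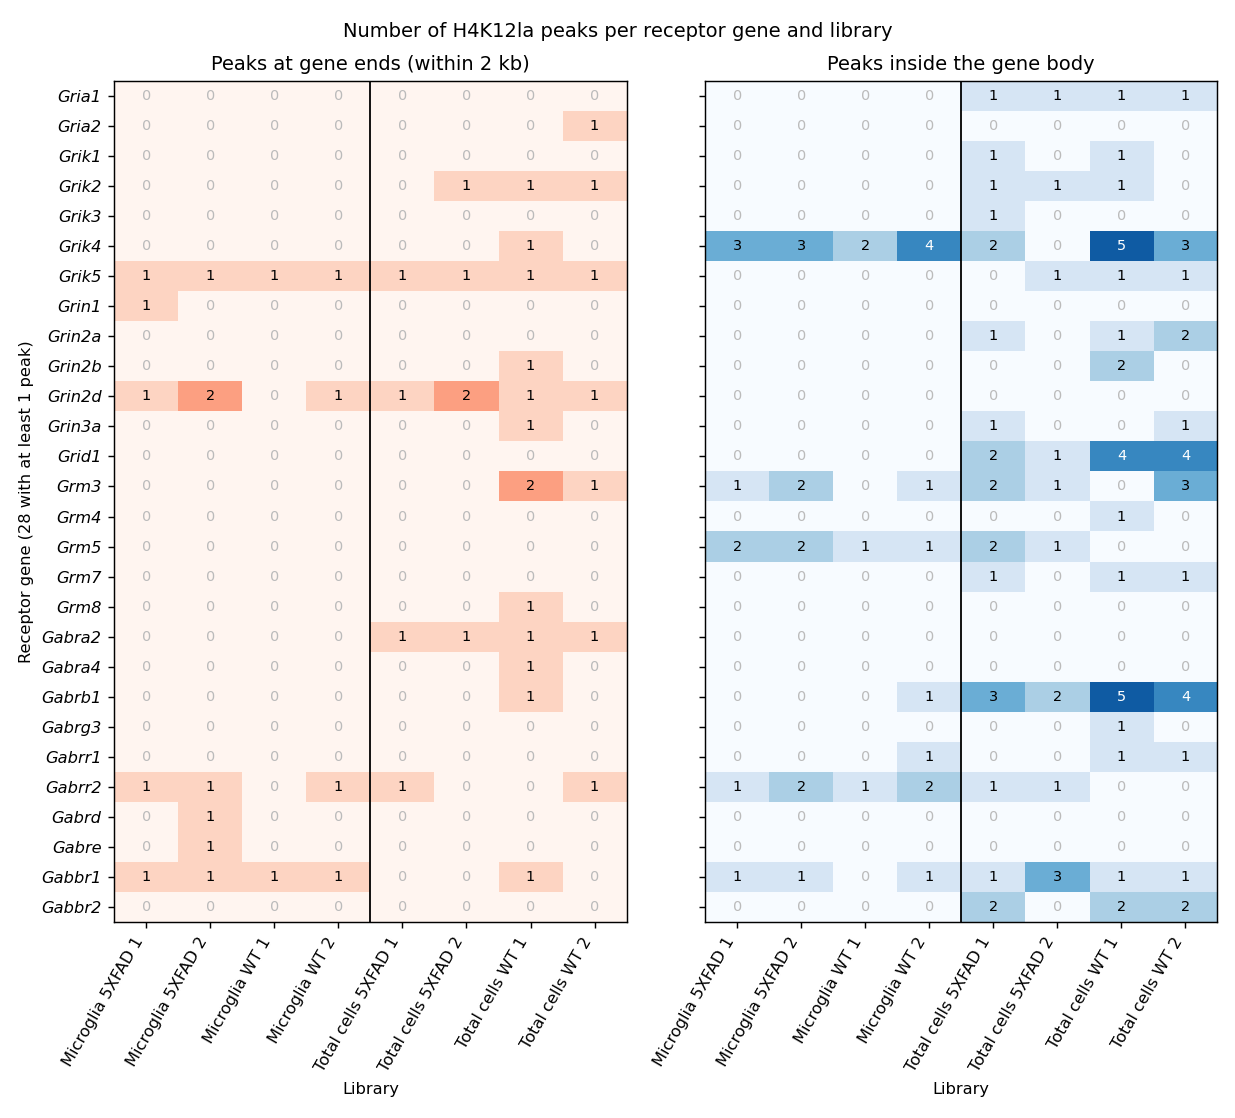
Number of H4K12la peaks at the gene ends (left) and inside the gene body (right) for 28 of the 29 receptor genes with at least 1 peak, one column per library, with microglia left of the vertical line and total cells right of it. The right panel is fuller for total cells, while Grik5 is the gene with a gene-end peak in all 8 libraries.

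Promoter sequence was examined at the starts listed in the RefSeq promoter table (GRCm38.p6), which held 39 starts for 32 of the 47 genes. Each entry is 300 bases long, from 250 before the start to 50 after it. The promoters of 6 genes are printed here because they show the range from marked to unmarked starts, and each is read 5′ to 3′ on the strand of its gene with the dinucleotide CG in capitals. Gabra2 (chr5:71095800-71096099, minus strand) and Grik2 (chr10:49788705-49789004, minus strand) had start peaks in total cells only, Gabbr1 (chr17:37045716-37046015, plus strand) in every microglia library and total cells WT 1, and the second listed start of Gabrb1 (chr5:71699682-71699981, plus strand) in every total cell library and microglia WT 2. Gabbr2 (chr4:46991665-46991964, minus strand) and Gabra6 (chr11:42321023-42321322, minus strand) had none in any library.
Gabra2: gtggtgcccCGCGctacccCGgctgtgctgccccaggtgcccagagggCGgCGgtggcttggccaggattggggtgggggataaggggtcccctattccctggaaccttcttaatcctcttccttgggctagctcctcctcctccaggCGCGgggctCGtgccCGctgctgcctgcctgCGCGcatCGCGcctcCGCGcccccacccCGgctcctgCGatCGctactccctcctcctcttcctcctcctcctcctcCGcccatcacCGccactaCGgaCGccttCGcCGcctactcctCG
Gabrb1: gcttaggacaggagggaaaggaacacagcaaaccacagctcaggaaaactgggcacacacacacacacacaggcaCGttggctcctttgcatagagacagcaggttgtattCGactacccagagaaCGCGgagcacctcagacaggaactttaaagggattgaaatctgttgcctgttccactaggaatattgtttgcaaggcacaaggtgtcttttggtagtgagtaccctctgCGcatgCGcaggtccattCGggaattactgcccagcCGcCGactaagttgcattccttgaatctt
Gabbr1: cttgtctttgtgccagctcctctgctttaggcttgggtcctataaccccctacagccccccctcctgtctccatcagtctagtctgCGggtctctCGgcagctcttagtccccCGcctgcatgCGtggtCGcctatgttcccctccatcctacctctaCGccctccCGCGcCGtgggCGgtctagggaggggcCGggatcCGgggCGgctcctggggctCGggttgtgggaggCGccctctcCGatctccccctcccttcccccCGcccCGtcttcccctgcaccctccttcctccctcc
Grik2: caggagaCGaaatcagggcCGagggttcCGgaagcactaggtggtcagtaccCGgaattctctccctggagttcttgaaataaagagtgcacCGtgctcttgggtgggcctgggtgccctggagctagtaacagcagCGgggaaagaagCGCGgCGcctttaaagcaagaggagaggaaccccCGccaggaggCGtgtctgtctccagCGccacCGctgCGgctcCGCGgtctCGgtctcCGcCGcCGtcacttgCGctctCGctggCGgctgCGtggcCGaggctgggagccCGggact
Gabbr2: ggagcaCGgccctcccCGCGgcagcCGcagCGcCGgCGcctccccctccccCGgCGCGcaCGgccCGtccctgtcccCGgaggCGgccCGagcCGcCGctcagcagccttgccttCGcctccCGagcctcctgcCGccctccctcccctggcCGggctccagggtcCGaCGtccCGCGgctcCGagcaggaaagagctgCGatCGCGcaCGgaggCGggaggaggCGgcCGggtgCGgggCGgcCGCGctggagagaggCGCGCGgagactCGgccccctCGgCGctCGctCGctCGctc
Gabra6: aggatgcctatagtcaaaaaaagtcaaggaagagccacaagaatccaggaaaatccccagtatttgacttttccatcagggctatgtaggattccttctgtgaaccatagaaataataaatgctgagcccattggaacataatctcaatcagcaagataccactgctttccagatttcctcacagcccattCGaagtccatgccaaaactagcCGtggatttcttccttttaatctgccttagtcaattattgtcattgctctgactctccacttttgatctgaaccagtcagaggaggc

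CG dinucleotides were counted in these windows and divided by the number expected from their C and G content, which gives the observed over expected CpG ratio. Gabbr2 had 46 CG dinucleotides and a ratio of 0.961, Grik2 had 26 and 0.836, Gabra2 had 25 and 0.721, Gabbr1 had 18 and 0.573, Gabrb1 had 9 at this start and 0.474, and Gabra6 had 2 and 0.155. The CpG-richest of the 6 promoters, that of Gabbr2, was thus among those without a start peak. Among the 32 genes, 11 (34.4%) had a peak within 2 kb of a listed start in at least 1 library, against 56.6% of all 17492 genes with a listed start. Gabra2 alone had one in every total cell and no microglia library, against 0.663% of those genes, and none had the opposite pattern, against 1.42%. Per library the share was 3.12% to 6.25% of the 32 genes in microglia and 6.25% to 28.1% in total cells, while for all genes it was 31.7% to 47.2% in microglia and 33.1% to 40.2% in total cells.

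The share of CpG-rich receptor starts with a peak lay below that of CpG-rich starts at large, which is a description without a test. At a ratio of 0.6 or more, 7 of 16 receptor starts (43.8%) had a peak within 2 kb in at least 1 library, against 8303 of 10144 starts of all genes (81.9%). Below 0.6 it was 6 of 23 receptor starts (26.1%) against 3795 of 11119 (34.1%). The 13 receptor starts with a peak held a median of 24.0 CG dinucleotides, against 9.5 for those without. For all genes these medians were 20 and 4. Both ends of the site bound by REST, a repressor of neuronal genes outside neurons, were also sought on both strands. TTCAGCACC was found in the Grm2 promoter alone (2.56% of the 39 windows, against 0.41% of all) and GGACAGC in those of Gria2 and Grm2 (5.13%, against 6.88%).

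**Figure D3:**
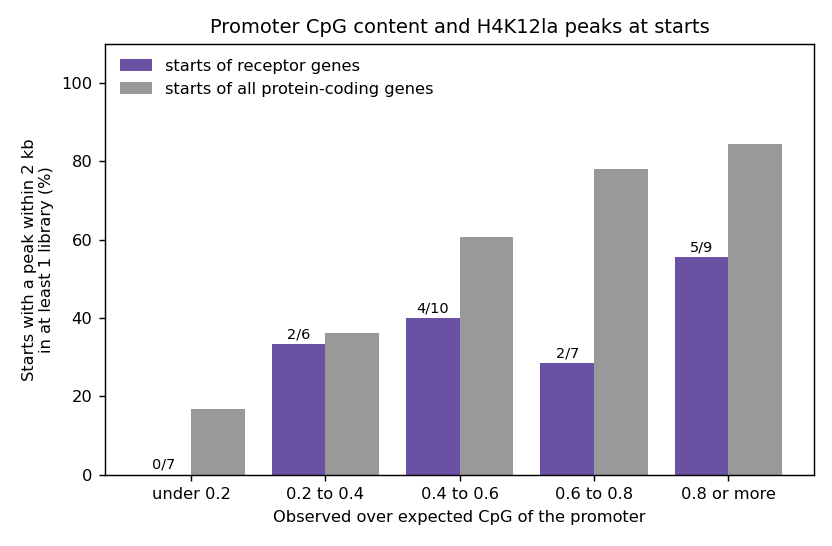
Percentage of listed starts with a peak within 2 kb in at least 1 of the 8 libraries, by observed over expected CpG of the promoter, for receptor genes (purple, with the number of starts marked out of all in the bin) and all protein-coding genes (grey). In the bin of 0.6 to 0.8, receptor starts stood at 28.6% and all starts at 78.0%, and in the bin of 0.8 or more at 55.6% and 84.5%.

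Microglia were compared with total cells gene by gene. The number of peaks in each gene and its 2 kb flanks was compared by an exact two-sided permutation test over the 70 ways of dividing 8 libraries into 2 sets of 4, whose smallest p is 0.0286. P-values were adjusted by the Benjamini-Hochberg method over the 14445 genes with a peak. No gene of the genome reached an adjusted p below 0.05 in this design, while 9.94% of tested genes reached the smallest p. Among receptor genes, 5 of the 29 with a peak (17.2%) reached it, and in all 5 the number was lower in every microglia library than in every total cell library. That pattern held for 2.26% of all genes and 10.6% of the 47. Among genes of 100 kb or more it held for 11.5%, against 19.2% of long receptor genes. No receptor gene had more peaks in every microglia library than in every total cell library, against 4.3% of all genes and 6.5% of long ones. Over the 29 genes, 22 had lower means in microglia, 6 had higher means and 1 had equal means, with a median difference of −0.25 peaks, against 0.25 over all tested genes. The adjusted p of the 5 genes was 0.287, so none of these differences passed correction. With 22300 peaks taken from each list, 2 of the 47 genes had fewer peaks in every microglia library, against 3.78% of all genes.

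An intragenic peak in every total cell and no microglia library was found for Gria1 and Grid1, 2 of the 47 genes against 0.973% of all genes and 2 of 26 against 4.41% of long ones. None had the opposite pattern, against 1.11% of all genes and 0.7% of long ones.

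The 5 genes with fewer peaks in every microglia library were Gria1, Grid1, Grik2, Gabra2 and Gabrb1. Grik2 and Gabrb1 were singled out after their values were seen, as were Grm5, Grik4 and Gabbr2 below. Gria1 (chromosome 11, 57011571 to 57330244) encodes an AMPA receptor subunit, part of the fast excitatory channel of synapses. It had 0 peaks in every microglia library and 1 in every total cell library, a difference of −1 (exact permutation p = 0.0286). Its intragenic peaks in both 5XFAD total cell libraries and in WT 2 fell in one region at 57040343 to 57040841, while that of WT 1 lay elsewhere. As the score of a peak is the authors' own and of unstated unit, it is given as its percentile within its list, and this region stood at percentiles 38.5 and 48.0 in 5XFAD total cells and at 77.9 in total cells WT 2. Gria2, which encodes the subunit that limits calcium entry through AMPA receptors, had a single peak, at its start in total cells WT 2, and Gria3 and Gria4 had none.

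Grid1 (chromosome 14, 34820003 to 35583387) encodes a delta receptor subunit, which organises synapses through adhesion partners rather than acting as a usual glutamate channel. It had 0 peaks, all places counted, in each microglia library, 2 and 1 in 5XFAD total cells, and 4 and 4 in WT total cells, a difference of −2.75. The region at 35080061 to 35080407 held a peak in all 4 total cell libraries, at percentiles 21.0 and 18.3 in 5XFAD and 54.3 and 41.5 in WT. Nearby, at 35074762 to 35075059, total cells 5XFAD 1 had a peak at percentile 22.6 and 5XFAD 2 had none, against peaks at percentiles 83.5 and 84.1 in WT total cells.

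All 5 kainate receptor genes had a peak in at least 1 library, Grik3 in 1 and Grik1 in 2. Of all genes, not matched for length, 34.0% had none. Grik2 (chromosome 10, 49093680 to 49790161), which encodes a subunit common in forebrain kainate receptors, had 0 peaks in each microglia library, 1 and 2 in 5XFAD total cells and 2 and 1 in WT total cells, a difference of −1.5. Its gene-end region at 49790054 to 49790554 lay 1300 bp from the listed start. It held a peak at percentile 31.9 in total cells 5XFAD 2 and peaks at percentiles 79.4 and 62.6 in WT total cells. Grik1 and Grik3 had at most 1 peak in a library, all in total cells.

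Grik4, which encodes a high-affinity subunit that needs a partner to form channels, was marked in both preparations. It had 3 and 3 peaks in 5XFAD microglia, 2 and 4 in WT microglia, 2 and 0 in 5XFAD total cells, and 6 and 3 in WT total cells, so the preparations overlapped. Its regions at 42897222 to 42898403 and 42908163 to 42909305 on chromosome 9 held a peak in all 4 microglia libraries. The second of them stood at percentiles 44.3 and 70.6 in 5XFAD microglia and 31.8 and 83.7 in WT microglia. In total cells it was absent from both 5XFAD libraries and stood at percentiles 15.5 and 32.6 in WT.

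Grik5, the other high-affinity kainate subunit, was the receptor gene with a gene-end peak in all 8 libraries, 2.13% of the 47 against 17.7% of all genes. The region, at 25075897 to 25077479 on chromosome 7, had percentiles of 65.6 and 88.6 in 5XFAD microglia, 31.8 and 69.4 in WT microglia, 60.2 and 75.9 in 5XFAD total cells, and 67.3 and 69.9 in WT total cells. It lies 3528 bp from the listed start of Grik5, and the zinc finger gene Zfp574 is also within 2 kb of it. With windows of 1 kb the peak was no longer at the end of Grik5 in all libraries. Which of the neighbouring genes such a peak belongs to was not tested.

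NMDA receptors, which pass calcium and need both glutamate and a second ligand, are built on the Grin1 subunit. Grin1 had 1 peak in the lists, in microglia 5XFAD 1, within 2 kb also of Lrrc26 and Grin1os. Grin2a, which encodes a main subunit of the mature forebrain, had 0 peaks in microglia, 1 and 0 in 5XFAD total cells and 1 and 2 in WT total cells, all in different regions. Grin2b, its counterpart in early life, had 3 peaks in total cells WT 1 and none elsewhere, and Grin2c and Grin3b had none. Grin2d had gene-end peaks in 7 libraries, with 1 and 2 in 5XFAD microglia, 0 and 1 in WT microglia, 1 and 2 in 5XFAD total cells and 1 and 1 in WT total cells. Its main region, at 45872734 to 45874484 on chromosome 7, covers the listed start of Kdelr1, a gene of the secretory pathway, and lies 6053 bp from the start of Grin2d.

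Among GABA-A receptor genes, the alpha and beta subunits that form the transmitter site were marked almost wholly in total cells where they were marked at all. Gabra2 (chromosome 5, 70958392 to 71095849) had a gene-end peak in every total cell library and in no microglia library, a difference of −1 (exact permutation p = 0.0286). It was the 1 receptor gene (2.13%) with that pattern, against 0.649% of all genes, and no receptor gene had the opposite one, against 1.5% of all genes. The peak, at 71096005 to 71096545, begins 156 bp upstream of the start whose promoter is printed above. It stood at percentiles 25.1 and 18.3 in 5XFAD total cells and at 81.0 and 38.5 in WT total cells, so it ranked in the lower part of both 5XFAD lists.

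Gabrb1 (chromosome 5, 71657921 to 72149572) had the most peaks in total cells of these 5 genes. It had 0 and 0 peaks in 5XFAD microglia, 0 and 1 in WT microglia, 3 and 2 in 5XFAD total cells and 6 and 4 in WT total cells. Microglia averaged 0.25 ± 0.5 peaks and total cells 3.75 ± 1.71 (SD, n = 4 each), a difference of −3.5 (exact permutation p = 0.0286). At 71700518 to 71701433, 586 bp from its second listed start, the percentiles were 87.1 and 86.0 in 5XFAD total cells and 89.7 and 85.6 in WT total cells, against 19.8 in microglia WT 2. This start has 9 CG dinucleotides in its window, fewer than the median of 24.0 for receptor starts with a peak. A further region at 72086422 to 72087020 held peaks at percentiles 74.8 and 53.5 in 5XFAD total cells and 83.9 and 84.9 in WT total cells, and none in microglia. The first start of Gabrb1, which it shares at close range with Gabra4, had a peak only in total cells WT 1.

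Gabrb2, which encodes a common beta subunit of the adult brain, had no peak in any library. Gabra3, Gabra5, Gabra6 and Gabrg1 had none either, and Gabrg3 had 1, in total cells WT 1. Gabrd and Gabre each had 1 gene-end peak, in microglia 5XFAD 2, and Gabrp and Gabrq had none. Over these families, 4 of 6 alpha, 2 of 3 beta and 2 of 3 gamma genes had no peak, against 34.0% of all genes. Receptor genes of other families without a peak included Gria3, Gria4, Grin2c, Grin3b, Grm2, Grm6 and Gabrr3.

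Peaks in every microglia library were found at 1 gene of the rho subunits, which are best known from the retina, and at 1 of the GABA-B receptor. Gabrr2 (chromosome 4, 33057712 to 33095865) had 2 and 3 peaks in 5XFAD microglia, 1 and 3 in WT microglia, 2 and 1 in 5XFAD total cells, and 0 and 1 in WT total cells, a difference of 1.25 that missed the smallest p (exact permutation p = 0.2). Its region at 33072750 to 33073504 stood at percentiles 95.3 and 94.6 in 5XFAD microglia and 71.4 and 78.7 in WT microglia. In total cells it stood at percentiles 9.0 and 53.5 in 5XFAD and was absent from WT. The neighbouring Gabrr1 had a peak at 33146124 to 33146715 at percentile 1.7 in microglia WT 2 and at 87.6 and 89.8 in WT total cells, with none in any 5XFAD library, whereas Gabrr3 had none at all.

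Gabbr1 (chromosome 17, 37045966 to 37074305) encodes the GABA-B subunit that binds the transmitter and Gabbr2 the one that couples to G proteins. The region over the start of Gabbr1, at 37045628 to 37046354, held a peak at percentiles 20.7 and 18.4 in 5XFAD microglia and 43.3 and 30.4 in WT microglia, and none in total cells. It was the 1 of 80 receptor regions (1.25%) found in every microglia and no total cell library, against 4.51% of all regions. Total cells WT 1 had a separate peak 487 bp from the same start, so Gabbr1 itself was not a gene of microglia alone. Gabbr2 (chromosome 4, 46662318 to 46991714) had 0 peaks in microglia, 2 and 0 in 5XFAD total cells, and 2 and 2 in WT total cells, a difference of −1.5 with exact permutation p = 0.143 and adjusted p = 0.528. In all, Gabbr1 had 2 and 2 peaks in 5XFAD microglia, 1 and 2 in WT microglia, 1 and 3 in 5XFAD total cells and 2 and 1 in WT total cells, with a mean of 1.75 in both preparations. A region inside it at 37067616 to 37067971 held peaks in total cells 5XFAD 2 and both WT libraries and in no microglia library.

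**Figure D4:**
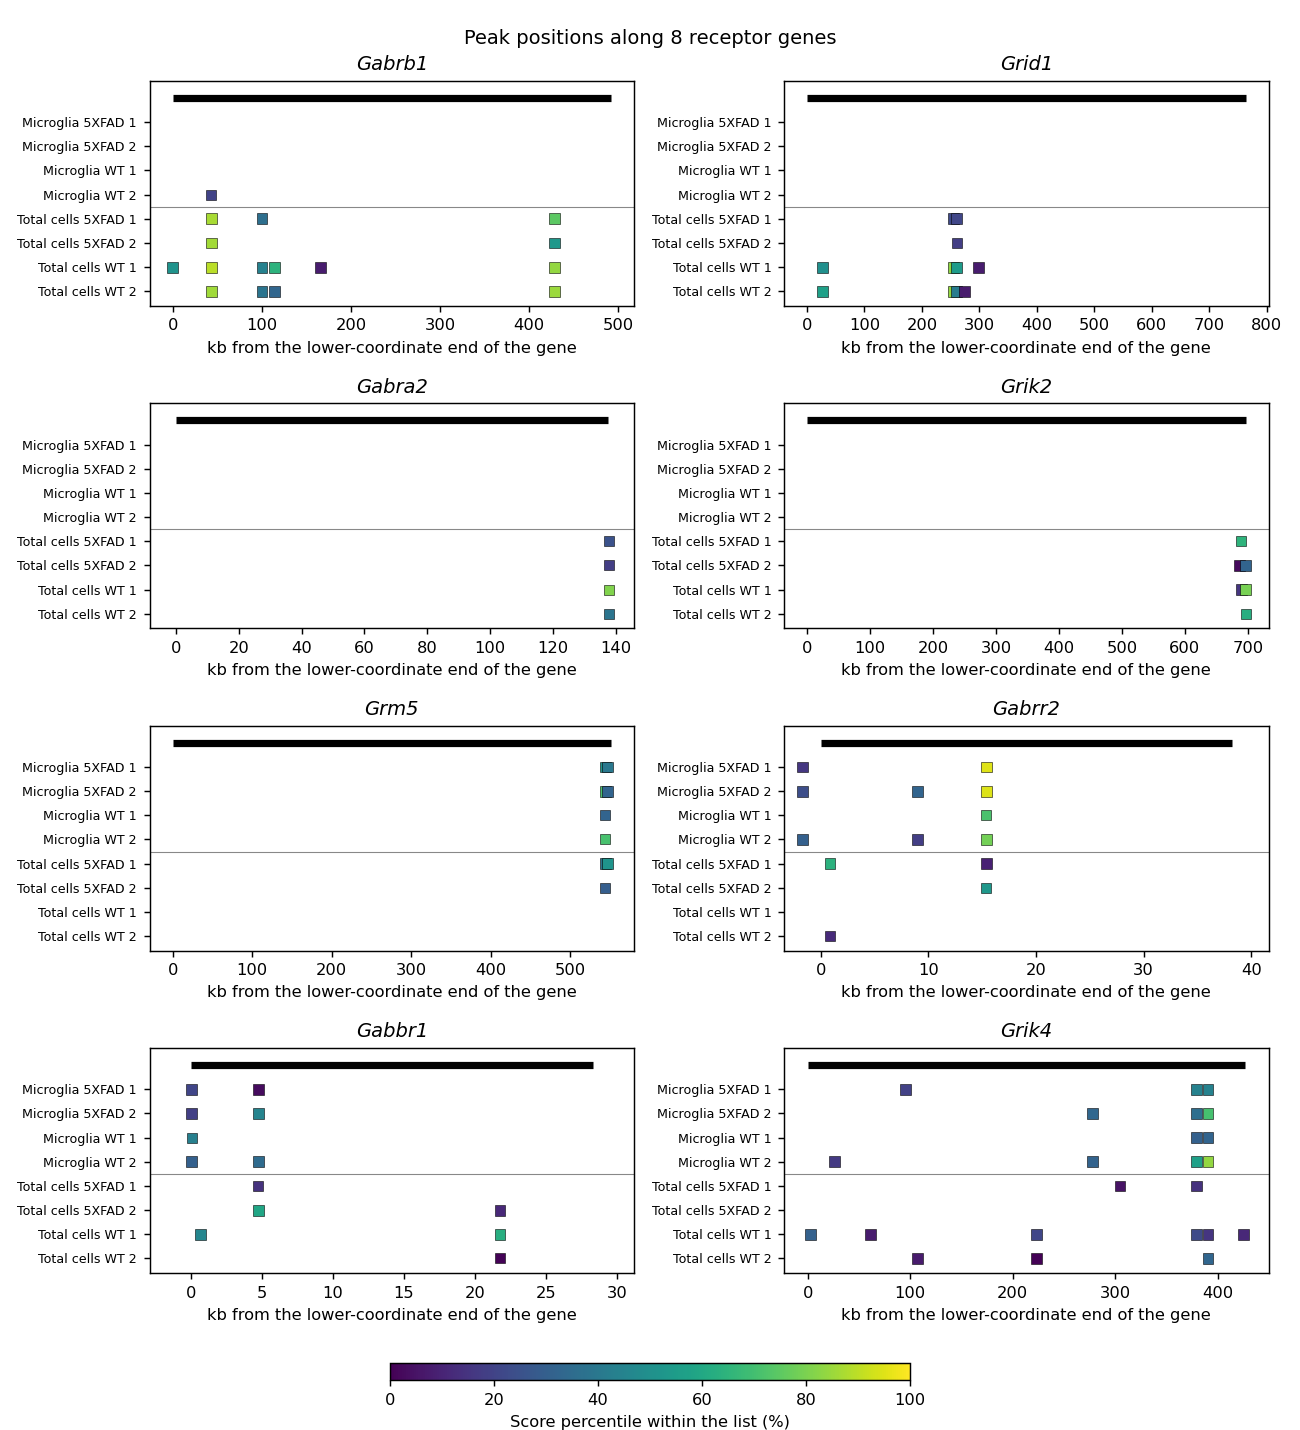
Positions of peaks along 8 receptor genes, in kb from the lower-coordinate end of each gene (black bar), with one row per library and microglia above total cells. Colour gives the percentile of the peak's score within its list (0 to 100); Gabrb1, Grid1, Gabra2 and Grik2 have 1 microglia peak between them, while Grm5 and the main region of Gabrr2 have none in WT total cells.

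Region by region, 56 of the 80 were found in total cells and in no microglia library, against 33.3% of all merged regions, and 11 (13.8%) in microglia and in no total cell library, against 31.3%. Regions present in every total cell and in no microglia library numbered 3 (3.75%), those of Gabra2, Grid1 and Gabrb1 given above, against 1.34% of all regions. The region near the second start of Gabrb1 missed that set by its weak peak in microglia WT 2. Regions found in all 8 libraries numbered 2, those of Grik5 and Grin2d, against 7.19%. Over the receptor regions present, the median percentile was 31.8 to 42.2 in microglia libraries and 32.6 to 43.4 in total cell libraries, so the preparations overlapped.

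5XFAD was compared with WT within each preparation. Within microglia, gene-end peaks found in the 5XFAD pair but not the WT pair occurred at no receptor gene, against 3.19% of all genes, and the opposite at none, against 0.58%. Within total cells, peaks of the 5XFAD pair alone occurred at none, against 3.11%, and peaks of the WT pair alone at Grm3, against 1.64%. With scores of at least 50, Grik2 had that last pattern and Grm3 did not. With 2 libraries against 2 the smallest p is 0.333, so these sets had no test within a preparation. Permuting genotypes within both preparations together gives 36 arrangements and a smallest p of 0.0556, which cannot pass 0.05. That p was reached by 2.42% of tested genes and, among receptor genes, by Grm5. A test of whether the genotype difference differed between preparations reached its smallest p for no receptor gene, against 0.755% of tested genes.

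Grm3 (chromosome 5, 9485236 to 9725352), a presynaptic and astrocytic receptor that inhibits adenylyl cyclase, had 0 gene-end peaks in microglia and in 5XFAD total cells, and 2 and 1 in WT total cells. In WT total cells the peak common to both libraries, at 9725919 to 9726136, lay 567 bp from the start and stood at percentiles 64.1 and 24.5. Inside the gene, at 9570005 to 9571187, peaks stood at percentiles 60.4 and 72.3 in 5XFAD microglia, 39.0 in microglia WT 2, and 16.4 and 57.1 in 5XFAD total cells, with none in WT total cells. The 2 places of Grm3 thus had opposite patterns of genotype in total cells, without a test.

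Grm5 (chromosome 7, 87583981 to 88135063), which couples to phospholipase C and is expressed by neurons and astrocytes, had 2 and 2 peaks in 5XFAD microglia, 1 and 1 in WT microglia, 2 and 1 in 5XFAD total cells, and 0 and 0 in WT total cells. The difference between 5XFAD and WT was 1 peak in microglia, while in total cells it was 1.5 (exact permutation p = 0.0556, adjusted p = 1). The region at 88127501 to 88128685, near the far end of the gene, stood at percentiles 52.1 and 71.1 in 5XFAD microglia, 31.8 and 71.0 in WT microglia, with 38.5 and 29.4 in 5XFAD total cells and no peak in WT total cells. It lies 149400 bp from the nearest listed start, that of the protease gene Ctsc. Of the remaining metabotropic genes, Grm4, Grm7 and Grm8 had peaks in total cells only and Grm2 and Grm6 had none.

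In 10 receptor regions a peak was present in at least 3 microglia libraries, and 4 of them were present in both 5XFAD and neither WT total cell library, against 9.95% of all such regions. They were the regions of Grm3, Grm5 and Gabrr2 just described and a region inside Gabbr1 at 37050062 to 37051326. The Gabbr1 region stood at percentiles 3.0 and 45.0 in 5XFAD microglia, 34.7 in microglia WT 2, and 14.1 and 59.3 in 5XFAD total cells. The second Grik4 region was the 1 of 10 with the opposite pattern, against 1.03%. As a share of all 80 regions these were 5.0% and 1.25%, against 3.3% and 0.342%. Microglia marker genes moved with this pattern, as 6 and 4 of 11 had a gene-end peak in 5XFAD total cells and 2 and 3 in WT total cells, and their part in it was not tested. With the same number of peaks taken from each list 1 of the 4 was left, and with scores of at least 50 none was.

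Partner genes of the receptors were counted from lists of known auxiliary subunits, scaffolds, transporters and enzymes. Of 14 auxiliary subunits of AMPA and kainate receptors, 10 lacked gene-end peaks throughout, against 41.1% of all genes. Cacng4, which encodes one of the proteins that steer AMPA receptors, had 1 gene-end peak in each microglia library and 0 in each total cell library, a pattern of 1.5% of all genes. Inside Cacng4, however, both WT total cell libraries had 1 peak. Cacng7 had 0 intragenic peaks in each microglia library, 1 and 1 in 5XFAD total cells and 1 and 2 in WT total cells. At its ends Cacng7 had 1 and 2 peaks in 5XFAD and 0 and 1 in WT microglia. In total cells it had 0 and 0 there in 5XFAD and 1 and 0 in WT. Of 16 glutamate receptor scaffolds, 4 to 7 had a gene-end peak in a microglia library and 4 to 8 in a total cell library, while over all genes the shares were 33.3% to 49.0% in microglia and 34.2% to 41.9% in total cells. The postsynaptic scaffolds Dlg2, Shank2 and Shank3, 3 of the 16, had 0 intragenic peaks in each microglia library and 1 or more in each total cell library. That pattern held for 0.973% of all genes and 4.41% of those of 100 kb or more, and the scaffolds were not matched for length. Others of the list were marked inside in both preparations, and Shank1 had 1 and 2 intragenic peaks in 5XFAD microglia, 1 and 2 in WT microglia, 1 and 1 in 5XFAD total cells and 0 and 0 in WT total cells. For Shank2 there were 2 and 2 in 5XFAD and 3 and 1 in WT total cells, and for Dlg2, whose gene ends were also marked in all 8 libraries, 1 and 1 in 5XFAD and 3 and 2 in WT.

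Partner genes of GABA receptors and genes of transmitter handling were counted in the same way. Of 11 auxiliary and scaffold genes of GABA receptors, 6 or 7 had a gene-end peak in each microglia library and 4 to 6 in each total cell library, and Kctd12 and Plcl1 were among those with one in all 8, as were 17.7% of all genes. Of 13 transmitter transporters, 9 lacked gene-end peaks throughout, against 41.1% of all genes, and the vesicular transporters Slc17a6, Slc17a7, Slc17a8 and Slc32a1 had no peak at all. Slc1a1, a neuronal glutamate transporter, had 0 intragenic peaks in microglia, 1 and 2 in 5XFAD total cells, and 1 and 2 in WT total cells. Slc1a3, a glutamate transporter of astrocytes, had gene-end peaks in all microglia libraries and in both 5XFAD total cell libraries, but in neither WT one. Its intragenic peaks numbered 11 and 11 in 5XFAD microglia, 10 and 10 in WT microglia, 8 and 4 in 5XFAD total cells and 3 and 1 in WT total cells. Its number of peaks was thus higher in every microglia library than in every total cell library, as for 4.3% of all genes. Of 8 transmitter enzymes, Gad1 and Gad2, which make GABA, had no peak in any list.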

How the data were processed

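H4K12la CUT&Tag was measured in 8 libraries, grouped by their titles. Per the submitters' processing notes, the authors used fastp 0.19.6, Bowtie2 and deepTools, with build GRCm38 (mm10). How peaks were called is not given in the sources used here. Each library's list was deposited with a whole-number score per peak, whose unit is not stated and whose lowest value was 20 in every list. The score served only to rank and filter peaks within a list. Deposited starts were taken as counted from 0 and are printed counted from 1.

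Genes came from a RefSeq table of GRCm38.p6 without strand, so windows of 2 kb lay on both sides of both ends, and 1 base of overlap counted. Strand and starts came from the RefSeq promoter table, which 15 members lack. Exact permutation tests used numbers of peaks. The code, run with Python 3.11.15, numpy 2.4.6, pandas 2.3.3 and matplotlib 3.10.9, was tested on simulated data. It recovered 97.5% of planted genes over 21887 genes for microglia against total cells. The planted genes were given more peaks in microglia, at a mean above that of any receptor gene. Recovery at the low counts of receptor genes, or of genes with fewer peaks in microglia, was not tested. Deviations of same-numbered libraries had correlations of −0.074 to 0.156, and libraries were not paired. In list length and median peak width, however, microglia replicate 2 exceeded replicate 1 in both genotypes. In total cells, replicate 1 exceeded replicate 2 in both. Whether the number stands for a shared batch is not given. At most 193 exact intervals were shared by 2 lists, so no list was a copy of another.

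Genes were named with values in full when they belonged to a set found in one group alone, had gene-end peaks in all 8 libraries, or were among the 6 with the most peaks per Mb. The members, lists and tests were chosen with earlier results of these data known. Some genes are counted but not reported by name here. Alternatives were windows of 1 and 5 kb, listed starts, peak midpoints, 22300 peaks per list, scores of at least 50, counts per 10000 peaks, a replicate block and leaving out each library.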

Additional observations from a re-analysis of the deposited data

Results flagged for a closer look

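The number of receptor genes with a gene-end peak differed between 5XFAD and WT in opposite directions in the 2 preparations. In microglia it was 5 and 6 of 47 genes in 5XFAD and 2 and 4 in WT. In total cells it was 4 and 4 genes in 5XFAD and 13 and 7 in WT. The difference in microglia exceeded that in total cells by 8.5 genes, or by 5.5 without total cells WT 1, the library that stood apart. Of all genes, 40.9% and 49.0% had a gene-end peak in 5XFAD microglia and 33.3% and 43.5% in WT microglia, in the same direction as the receptor genes. In total cells 41.9% and 34.7% of all genes had one in 5XFAD and 36.5% and 34.2% in WT, so they did not fall with the receptor genes. This was picked out because both 5XFAD libraries lay above both WT libraries in microglia and below them in total cells, and the difference was not tested. Microglia lists held 29947 and 41783 peaks in 5XFAD and 22300 and 33500 in WT, and total cell lists held 32967 and 22807 in 5XFAD and 25271 and 22543 in WT. The part of list length in this was not tested.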

How the results depend on the processing

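Depth is unknown, the lists stop at a score of 20, and gene-end windows hold both ends of a gene and any neighbour there. With windows of 1 kb, 1 gene (Grik5) had gene-end peaks in every microglia and no total cell library, against 1.38% of all genes. In that setting 0 had them in all 8 libraries, against 15.3%. With 5 kb, 2 (Grik5 and Grin2d) had them in all 8, against 22.5% of all genes. The 5XFAD pair of microglia alone then had them at 2 (Gabrd and Grm5), against 3.09%. With listed starts alone, 0 had a peak in all 8, against 13.6%. With 22300 peaks from each list, 0 genes had gene-end peaks in total cells alone, 1 (Gabrb1) had intragenic peaks there alone, 2 (Gabrb1 and Grik2) had fewer peaks in every microglia library, and Grm5 no longer reached the smallest p (0 genes). With 22300 peaks, regions of microglia alone numbered 0 and regions shared with 5XFAD but not WT total cells 1. Genes with peaks in microglia and none in total cells numbered 0, against 4.54% of all genes. With scores of at least 50, 0 genes had gene-end peaks in total cells alone, against 0.329% of all genes. Intragenic peaks in microglia alone were found for 1 (Grik4) and in total cells alone for 1 (Gabrb1), against 1.74% and 0.461%. More peaks in every microglia library were found for 1 (Grik4) and fewer for 1 (Gabrb1), against 5.90% and 0.873%. Gene-end peaks in the WT pair of total cells alone were found at Grik2, against 1.28%, and no longer at Grm3. The smallest p for genotype was reached by 0 receptor genes. Regions of microglia alone numbered 4, and regions shared with 5XFAD but not WT total cells 0. The cause was not tested.

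The difference in peaks of microglia minus total cells turned from −0.75 to 0.25 for Grik5 with 1 kb windows, from −1.25 to 0.25 for Grm3 with scores of at least 50, and from −0.25 to 0.75 for Grin2d with scores of at least 50 and to 0.083 without microglia WT 1, its range without 1 library being −0.583 to 0.083. The lowest adjusted p of any receptor gene was 0.287 as reported and 0.174 to 0.780 over the alternatives.

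Sets of genes defined over every library of a group can only keep or gain genes when 1 library is left out. Their counts could therefore not fall below those reported. Leaving out 1 library at a time, genes with gene-end peaks in microglia alone numbered 0 to 1 and in total cells alone 1 to 2, and in all 8 libraries 1 to 2. Those with intragenic peaks in microglia alone numbered 0 to 0 and in total cells alone 2 to 5. Genes with more peaks in every microglia library numbered 0 to 0 and with fewer 5 to 9, reaching 9 without total cells 5XFAD 2. Gene-end peaks were found in 5XFAD alone for 0 to 2 genes in microglia and 0 to 0 in total cells, and in WT alone for 0 to 0 in microglia and 1 to 9 in total cells, 9 being without total cells WT 2. Regions of total cells alone numbered 3 to 6, of microglia alone 1 to 2, and of microglia and 5XFAD total cells 2 to 4. Genes with peaks in total cells and not microglia numbered 11 to 19, the opposite 1 to 3, and those without a peak 18 to 23. With the replicate number as a block, the same 5 genes had fewer peaks in microglia in all 4 pairs, which follows from how they were defined. In that design 0 genes had more, and the smallest p it allows is 0.125.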
